A study of Mus musculus with 91 samples.

Results

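The XY *Flk1-mCherry* cells of the fetal mouse testis at E13.5 were set against the same sorted cells at E12.5, with 3 arrays at each stage. All 6 arrays came from CD-1 embryos carrying the Tg(Kdr-mCherry)1Medi reporter, in which *Kdr* (*Flk1*) sequences drive mCherry. The labels describe them as endothelial cells. XY gonads were pooled from one or more litters, dissociated with trypsin and sorted by flow cytometry, so an array stands for a pool and not for a known number of animals. Another pair of populations was used to set the stage change in context, each with 3 arrays at E13.5 and 3 at E12.5. These were the XX *Flk1-mCherry* cells, of the same reporter and strain, and the XY interstitial cells, sorted from reporter embryos that were progeny of CD-1 and a mixed background, which the labels describe as an interstitial subset with fetal Leydig cells. RNA was amplified once and hybridised to whole-transcript arrays, and levels are given as log2 intensity, on which a difference of 1 is a 2-fold difference.

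The members are the transcript clusters (the probe groups that measure one gene) that name a single gene and reached a floor of log2 6 at E13.5 or at E12.5, on 2 or more of the stage's 3 arrays. Of 21789 single-gene clusters in the table, 15550 met this rule, and they named 14164 genes. Of the members, 14921 reached the floor at both stages, 183 at E13.5 only and 446 at E12.5 only. The value that decided membership was as low as 6.000 among the clusters kept and as high as 5.999 among those left out. Stage differences were tested in a linear model over 72 arrays of 24 groups, and a cluster was called where the p-value adjusted over 16820 fitted clusters was under 0.05.

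Endothelial cells line blood vessels and are known by the junction protein VE-cadherin and by receptors for vascular endothelial growth factor. In the fetal testis a coelomic artery forms while vessels remodel between the cords. Fetal Leydig cells lie in the same interstitial space and make androgens from cholesterol. They import cholesterol into mitochondria, cleave its side chain and pass the product through a short chain of enzymes, and they draw the cholesterol from lipoproteins or from their own synthesis. The study's account of the reporter says that it is also active in some Leydig cells, so the sort need not be purely endothelial. The study also stained sorted cells for a Leydig marker and reported Leydig cells among them, without giving the stage. In E13.5 XY gonads it found reporter-positive cells that carried a Leydig marker and lacked a vascular marker. It describes the XY sort as contaminated by Leydig cells after E11.5. In a bulk sample, more cells of a type and more RNA per cell cannot be told apart.

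The sorted cells carried the defining endothelial markers at both stages. *Cdh5*, encoding VE-cadherin, lay at 12.03, 11.63 and 11.94 on the E13.5 arrays, against 12.01, 12.21 and 12.13 at E12.5. *Kdr*, the gene whose sequences drive the reporter, lay at 10.58, 10.34 and 10.80 at E13.5, against 10.77, 11.12 and 11.09 at E12.5. The 2 stages overlapped for both genes, and neither stage difference passed the test (adjusted p = 0.733 for *Cdh5* and 0.229 for *Kdr*). In XY interstitial cells at E13.5 both were far lower, at 7.91 for *Cdh5* and 6.70 for *Kdr*. The Leydig markers *Cyp11a1* and *Star* were also high in the XY *Flk1-mCherry* cells and rose between the stages, as described next.

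Between E12.5 and E13.5, 338 members rose and 186 fell, which is 2.17% and 1.2% of all members. The rises were larger than the falls, with 121 risen clusters over 2-fold against 9 fallen ones. Genes of steroid hormone synthesis were among the largest rises and 12 of 17 cholesterol synthesis enzymes rose, while *Fabp4*, *Gja5* and *Esm1* were among the largest falls. The 3 arrays of one stage did not overlap the 3 of the other for 479 of the 524 called clusters, while 19.7% of all members were separated in this way. Of the called members, 35 risen ones reached the floor at E13.5 only and 15 fallen ones at E12.5 only, so that these passed the floor through the stage at which they were higher. Leaving out E12.5 replicate 3 left 190 risen and 60 fallen clusters, leaving out E13.5 replicate 1 left 208 and 109, and a fit to these 6 arrays alone called 189 and 50.

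**Figure D1:**
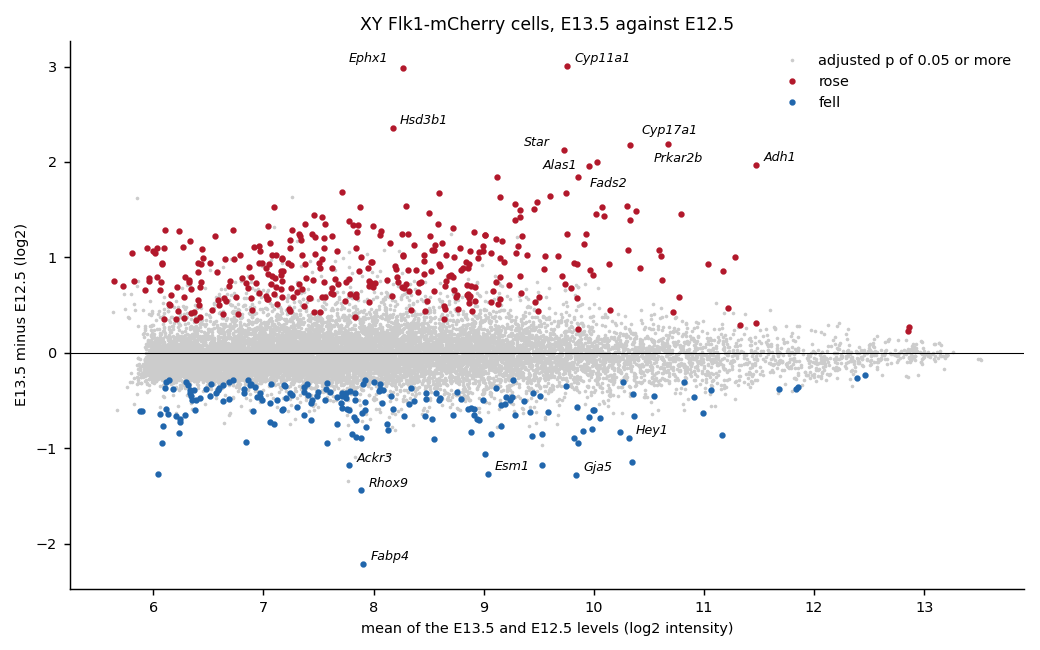
Mean of the E13.5 and E12.5 levels (log2 intensity, horizontal) against the E13.5 minus E12.5 difference (log2, vertical) for the 15550 members in XY *Flk1-mCherry* cells. Red points are the 338 clusters that rose, blue points the 186 that fell and grey points those that were not called, with *Cyp11a1* and *Ephx1* at the top and *Fabp4* at the bottom.

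The largest rise was that of *Cyp11a1*, which encodes the mitochondrial enzyme that cleaves the side chain of cholesterol and so begins steroid synthesis. Its level was 11.52, 11.02 and 11.25 at E13.5, against 8.20, 8.36 and 8.20 at E12.5. The stages lay far apart, with an 8.07-fold difference (3.01 ± 0.26 SE on the log2 scale, adjusted p = 1.8e-12). *Star*, which carries cholesterol to the inner mitochondrial membrane, had 10.91, 10.83 and 10.63 at E13.5, against 8.57, 8.55 and 8.86 at E12.5, a 4.37-fold rise (adjusted p = 5.0e-12). *Cyp17a1*, the hydroxylase and lyase that leads to androgens, had 11.56, 11.31 and 11.39 at E13.5, against 9.47, 9.09 and 9.16 at E12.5, a 4.52-fold rise (adjusted p = 3.5e-10). *Hsd3b1*, a 3β-hydroxysteroid dehydrogenase, was more scattered. It had 9.67, 8.68 and 9.72 at E13.5, against 6.35, 7.87 and 6.76 at E12.5, without overlap (adjusted p = 2.2e-11), though the *Hsd3b* genes are near-identical copies and the array may not separate them. *Fdx1*, the ferredoxin that passes electrons to *Cyp11a1*, had 11.88, 11.81 and 11.64 at E13.5, against 10.54, 10.82 and 10.97 at E12.5 (adjusted p = 1.2e-06).

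Promoter sequence was taken from RefSeq (GRCm38.p6) for those steroid and cholesterol genes that had a promoter window. It is shown for *Cyp11a1*, the largest rise, and for 2 cholesterol enzymes whose windows held a searched motif. Each run is the 250 bases upstream of an annotated start, given 5′ to 3′. The letters AAGGTCA, a site bound by the orphan receptor NR5A1, and TCACCCCA, from the sterol response element bound by SREBP factors, were searched on both strands. Of 11 steroid genes listed, 7 had a window, and *Star* and *Cyp17a1* had none and were not searched. Of 8 windows of these 7 steroid genes none held AAGGTCA, while 4.08% of 32851 promoter windows held it. The shorter letters AGGTCA, which lie within AAGGTCA and were added after the sequences were read, were in 14% of all windows and in 1 of the 2 *Cyp11a1* windows, starting 28 bases upstream of the start. Capitals mark AGGTCA in *Cyp11a1* (chr9:58014702-58014951, plus strand), TCACCCCA and the reverse complement of AAGGTCA in *Hmgcs1* (chr13:119690101-119690350, plus strand), and AAGGTCA in *Dhcr7* (chr7:143822917-143823166, plus strand).
Cyp11a1: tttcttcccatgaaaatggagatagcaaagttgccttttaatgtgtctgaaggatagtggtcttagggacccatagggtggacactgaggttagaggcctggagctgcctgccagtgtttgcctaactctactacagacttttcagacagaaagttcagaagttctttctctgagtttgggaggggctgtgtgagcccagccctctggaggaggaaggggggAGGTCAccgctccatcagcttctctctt
Hmgcs1: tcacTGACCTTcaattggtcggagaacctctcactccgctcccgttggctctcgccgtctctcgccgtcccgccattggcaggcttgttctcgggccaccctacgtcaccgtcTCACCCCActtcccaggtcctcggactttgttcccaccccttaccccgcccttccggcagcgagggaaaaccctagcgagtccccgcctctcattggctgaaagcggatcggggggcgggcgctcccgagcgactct
Dhcr7: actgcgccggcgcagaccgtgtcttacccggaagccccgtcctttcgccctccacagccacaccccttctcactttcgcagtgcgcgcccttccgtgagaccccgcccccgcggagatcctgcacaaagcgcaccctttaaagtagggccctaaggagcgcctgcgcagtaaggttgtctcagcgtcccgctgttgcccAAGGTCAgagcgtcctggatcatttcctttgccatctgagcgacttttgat
TCACCCCA was in 1.34% of all windows, and in the window of 1 of 14 cholesterol synthesis genes, *Hmgcs1*, where it began 137 bases upstream of the start. AAGGTCA was in windows of 2 of these 14 genes, *Hmgcs1* and *Dhcr7*, and the other *Dhcr7* windows did not hold it. The uptake, storage and sterol sensing list also had 14 genes with a window. None of them held AAGGTCA, and *Apoe* and *Srebf2* held TCACCCCA. These are matches of letters in a window, and binding was not measured.

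Of the 8 steroid synthesis genes analysed, all 8 were members, 5 rose and none fell. The median difference of the list was 1.57, against -0.045 over all 15321 fitted genes, of which 40% were above 0. The 3 that were not called were *Hsd3b6*, with a difference of 0.54 (adjusted p = 0.162), *Cyb5a*, with 0.09, and *Tspo*, with 0.06. The mean level of the list hardly varied within a stage, with 9.73, 9.69 and 9.73 on the E13.5 arrays, against 8.20, 8.40 and 8.28 on the E12.5 arrays. The same 5 genes rose whichever of the 6 arrays was left out, and *Hsd3b6* was called in addition without E13.5 replicate 1. *Fdxr*, *Por* and *Srd5a1* were not analysed here.

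**Figure D2:**
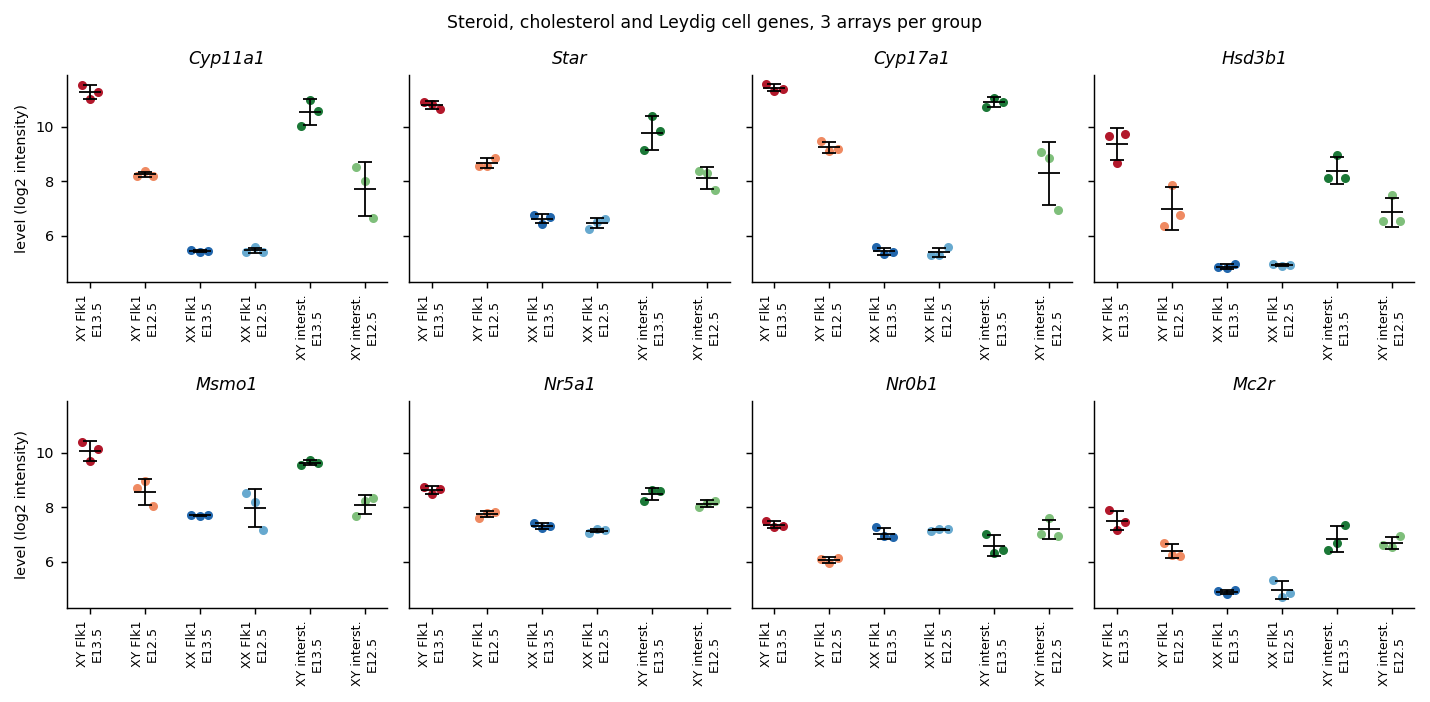
Level (log2 intensity, vertical) of 8 steroid, cholesterol and Leydig cell genes on each array of XY *Flk1-mCherry*, XX *Flk1-mCherry* and XY interstitial cells at E13.5 and E12.5. Points are arrays, and bars are the mean and SD of 3. The XY *Flk1-mCherry* mean of *Cyp11a1* was 11.27 at E13.5 and 8.25 at E12.5, while both XX groups lay near 5.45.

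The 15 largest rises, taken over genes whose arrays did not overlap and with 1 cluster per gene, also held genes of other functions. *Ephx1*, a microsomal epoxide hydrolase, had 9.93, 9.64 and 9.71 at E13.5, against 6.50, 6.76 and 7.06 at E12.5, a 7.92-fold rise (adjusted p = 2.7e-20). *Prkar2b*, a regulatory subunit of the cyclic AMP-dependent protein kinase through which gonadotrophin signals run, had 11.99, 11.78 and 11.54 at E13.5, against 9.70, 9.48 and 9.57 at E12.5, a 4.56-fold rise (adjusted p = 1.6e-11). *Alas1*, the first enzyme of haem synthesis, on which cytochrome P450 enzymes depend, rose 3.88-fold. *Gramd1b*, which moves cholesterol from the plasma membrane to the endoplasmic reticulum, rose 3.18-fold. *Fads2*, a fatty acid desaturase, rose 3.99-fold, and *Adh1*, an alcohol dehydrogenase, rose 3.92-fold to 12.46 ± 0.19 at E13.5, against 10.49 ± 0.26 at E12.5 (SD, n = 3 each). The rest of the 15 were *Defb19*, a beta-defensin, *Apoc1*, an apolipoprotein, *Aldh1b1*, a mitochondrial aldehyde dehydrogenase, *Akr1cl*, of the aldo-keto reductase family, and *Vsnl1*, a calcium sensor, with differences of 1.84, 1.84, 1.68, 1.64 and 1.63. None of the 15 lost its call under any of 14 alternatives of processing or array choice.

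Enzymes of cholesterol synthesis rose together. Of 17 analysed, 12 rose and none fell, all 17 were higher at E13.5, and the median difference was 0.89. They covered early and late steps of the pathway. *Hmgcs1*, which acts early in the pathway, had 11.01, 10.85 and 10.72 at E13.5, against 10.00, 10.10 and 9.82 at E12.5, a 1.85-fold rise (adjusted p = 2.8e-04). *Lss*, which closes the sterol rings, had 8.29, 7.97 and 7.56 at E13.5, against 6.79, 6.75 and 6.56 at E12.5, a 2.36-fold rise (adjusted p = 1.6e-07). *Msmo1*, which removes methyl groups from the sterol, had 10.41, 9.69 and 10.13 at E13.5, against 8.72, 8.96 and 8.05 at E12.5, a 2.83-fold rise (adjusted p = 1.2e-04). *Dhcr7*, the last reductase of one branch, rose 1.94-fold (adjusted p = 8.6e-07). The stages did not overlap in any of these 4. *Nsdhl* and *Idi1* rose 2.38-fold and 2.19-fold, and *Fdps*, *Sqle*, *Cyp51*, *Tm7sf2*, *Hsd17b7* and *Sc5d* rose by less. The 5 that were not called were *Mvk*, *Pmvk*, *Mvd*, *Fdft1* and *Ebp*, with differences of 0.07 to 0.74. With each array left out in turn, 9 to 12 of the 17 rose.

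Genes of cholesterol uptake, storage and sterol sensing moved less. Of 17 analysed, 2 rose and none fell, with a median difference of 0.22. *Scarb1*, the receptor that takes cholesterol ester from high-density lipoprotein, had 11.04, 10.68 and 11.33 at E13.5, against 9.49, 9.78 and 9.61 at E12.5, a 2.62-fold rise (adjusted p = 2.9e-06). *Apoe*, which carries lipid between cells, rose 1.69-fold. The stages did not overlap for either gene. *Srebf2*, the factor that drives cholesterol synthesis genes, lay at 8.73, 8.71 and 8.79 at E13.5, against 8.51, 8.48 and 8.51 at E12.5, a separation of 0.25 that was not called (adjusted p = 0.307). Its escort *Scap* and its inhibitor *Insig1* were also higher at E13.5 without a call, by 0.41 and 0.49.

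Among 8 genes of Leydig cell identity, 3 rose and none fell (median difference 0.41). *Nr5a1*, the nuclear receptor that drives steroid enzymes, had 8.76, 8.49 and 8.67 at E13.5, against 7.63, 7.80 and 7.84 at E12.5, a 1.84-fold rise (adjusted p = 4.4e-07). *Nr0b1*, a repressor partner of *Nr5a1*, had 7.51, 7.28 and 7.32 at E13.5, against 6.12, 5.96 and 6.16 at E12.5 (adjusted p = 0.00657). *Inha*, the inhibin alpha subunit, had 10.54, 10.08 and 10.20 at E13.5, against 8.69, 8.67 and 8.72 at E12.5, a 2.99-fold rise (adjusted p = 2.0e-06). All 3 were free of overlap between the stages, and each rose whichever array was left out. These 3 genes are not particular to Leydig cells. At E13.5 *Nr5a1*, *Nr0b1* and *Inha* averaged 8.64, 7.96 and 9.48 in XY *Sox9-ECFP* Sertoli cells. In XY interstitial cells they averaged 8.50, 6.60 and 9.50. *Gata4*, a partner of *Nr5a1* in gonadal cells, was not called, at 8.64, 8.81 and 8.79 at E13.5, against 8.21, 8.50 and 7.87 at E12.5 (adjusted p = 0.0933). *Vcam1*, *Thbs2* and *Dlk1* differed by -0.26, 0.04 and 0.12. *Insl3* and *Lhcgr* were not analysed here.

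A few genes better known from the adrenal cortex were also followed. *Mc2r*, the receptor for adrenocorticotropic hormone, had 7.89, 7.19 and 7.48 at E13.5, against 6.71, 6.27 and 6.22 at E12.5, a 2.18-fold rise without overlap (adjusted p = 4.6e-04). *Cyp11b1*, the 11β-hydroxylase, had 6.57, 6.24 and 6.24 at E13.5, against 5.89, 5.28 and 5.54 at E12.5. It was called (adjusted p = 1.1e-04), but it was a member through E13.5 only, and its E12.5 arrays lay under the floor, as did the XX means of 5.49 at E13.5 and 5.58 at E12.5. *Cyp21a1* stayed under the floor on every array, and *Cyp11b2* and *Hoxb9* differed by 0.00 and 0.03. None of the 11 hedgehog pathway genes was called. Their median difference was 0.12, and *Ptch1*, the hedgehog receptor and target, differed by 0.26 (adjusted p = 0.629).

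The pan-endothelial list was slightly lower at E13.5. Of 34 genes, all were members, none rose and 3 fell, 32 were lower at E13.5, and the median difference was -0.23. The 3 were *Sox7*, a SoxF transcription factor, *Icam2*, an adhesion molecule, and *She*, an adaptor protein. *Sox7* had 7.33, 7.10 and 7.89 at E13.5, against 7.97, 8.46 and 8.55 at E12.5, a 1.85-fold fall (adjusted p = 8.0e-04). *Sox17* and *Sox18*, of the same family, differed by 0.02 and -0.19. *Flt1* lay at 10.21, 9.81 and 10.64 at E13.5, against 10.52, 10.39 and 10.60 at E12.5 (adjusted p = 0.502). The list's mean level was 9.21, 8.91 and 9.50 on the E13.5 arrays, against 9.31, 9.57 and 9.60 on the E12.5 arrays, and E13.5 replicate 2 was the lowest. Without that array only *Sox7* remained called, and without E12.5 replicate 3 likewise only *Sox7*.

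Several arterial and Notch genes fell. Of 22 analysed, 21 were members, 10 fell and 2 rose, with a median difference of -0.38. *Gja5*, the arterial connexin, had 9.22, 9.18 and 9.19 at E13.5, against 9.79, 10.93 and 10.70 at E12.5, a 2.43-fold fall (adjusted p = 9.3e-04). *Hey1*, a target of Notch, had 10.00, 9.89 and 9.73 at E13.5, against 10.61, 10.83 and 10.85 at E12.5, a 1.86-fold fall (adjusted p = 5.2e-04). *Dll4*, the endothelial Notch ligand, had 7.53, 7.36 and 7.47 at E13.5, against 7.78, 8.07 and 8.30 at E12.5, a 1.51-fold fall (adjusted p = 8.1e-04). *Nrp1*, a coreceptor for semaphorins and vascular endothelial growth factor, had 9.73, 9.72 and 10.00 at E13.5, against 10.55, 10.68 and 10.71 at E12.5, a 1.78-fold fall (adjusted p = 0.015). In all 4 the E13.5 arrays lay below every E12.5 array. *Gja4*, *Unc5b*, *Efnb2*, *Notch1*, *Notch4* and *Sema3g* also fell, by 0.44 to 0.85 on the log2 scale. The 2 that rose were *Cxcl12*, a chemokine, and *Heyl*, another Notch target. *Cxcl12* had 7.93, 9.25 and 7.01 at E13.5, against 6.93, 6.91 and 6.62 at E12.5, with E13.5 replicate 2 highest, and neither gene was called without that array. In XY interstitial cells *Cxcl12* was higher, averaging 9.91 at E13.5 and 8.78 at E12.5, and it rose there too (adjusted p = 0.00748). With each array left out in turn, 5 to 10 of the 21 fell, and *Gja5*, *Hey1*, *Dll4*, *Unc5b* and *Sema3g* fell every time. The count was 5 without E12.5 replicate 3 and 5 without E13.5 replicate 2.

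Some genes of sprouting vessels fell as well. Of 14 analysed, 13 were members, 4 fell and none rose, with a median difference of -0.18. *Esm1*, a proteoglycan of tip cells, had 8.74, 8.45 and 8.02 at E13.5, against 9.29, 9.73 and 10.01 at E12.5, a 2.41-fold fall without overlap (adjusted p = 2.4e-04). *Kcne3*, a potassium channel subunit, *Vegfc*, a growth factor for lymphatic and venous vessels, and *Angpt2*, which destabilises vessels, fell by 1.06, 0.66 and 0.49 on the log2 scale. *Apln*, *Pdgfb* and *Plxnd1* differed by 0.12, -0.06 and -0.19. With each array left out in turn, 2 to 4 genes of the list fell, and *Esm1* was the only one of the 4 called every time. The fit without E13.5 replicate 3 lost *Angpt2* and added *Mcam*, an adhesion molecule. Of 12 venous and lymphatic members, *Flt4* and *Nrp2* fell, with adjusted p = 0.0486 and 0.0497 (neither was called in 4 of the 6 fits with 1 array left out), and *Nr2f2* and *Ephb4* differed by 0.59 and -0.14.

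The largest fall of any member was that of *Fabp4*, a fatty acid binding protein of capillaries and fat cells. It had 7.06, 6.64 and 6.69 at E13.5, against 8.44, 9.18 and 9.41 at E12.5, a 4.64-fold fall without overlap (adjusted p = 1.7e-10). *Cd36*, a fatty acid transporter, went the other way, with 8.83, 8.29 and 8.31 at E13.5, against 7.38, 7.62 and 6.42 at E12.5 (adjusted p = 0.00104), but it was not called without E12.5 replicate 3. *Cd36* also rose in XY interstitial cells, by 1.36 (adjusted p = 0.00111), while in XX *Flk1-mCherry* cells it differed by -0.20 (adjusted p = 0.929). *Ackr3*, the scavenger receptor for the chemokine CXCL12, had 7.21, 7.26 and 7.11 at E13.5, against 8.25, 8.48 and 8.39 at E12.5, a 2.27-fold fall (adjusted p = 2.1e-09). *Slc2a1*, the glucose transporter, fell 1.81-fold, and *Pfkp*, a phosphofructokinase, fell by 0.95 on the log2 scale. *Slco2a1*, a prostaglandin transporter, rose 1.92-fold, but was not called without E13.5 replicate 3. The other large falls were *Rhox9*, a homeobox gene of a cluster of similar copies, *Mecom*, a zinc finger factor, *Gap43*, a growth cone protein, *Ptp4a3*, a phosphatase, *Mmrn1*, a multimerin, *Kcnj2*, a potassium channel, and *Hapln1*, a hyaluronan link protein, with differences of -1.44, -1.18, -1.14, -0.95, -0.95, -0.94 and -0.90. *Rhox9* had 7.16, 7.01 and 7.33 at E13.5, against an uneven 9.18, 8.76 and 7.87 at E12.5, and it lost its call when any 1 of 4 arrays was left out, E12.5 replicate 1 or 2 or E13.5 replicate 1 or 2. Of the 15 largest falls chosen by the same rule, *Fabp4*, *Gja5*, *Esm1*, *Ackr3*, *Pfkp* and *Hey1* kept their call under all 14 alternatives.

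**Figure D3:**
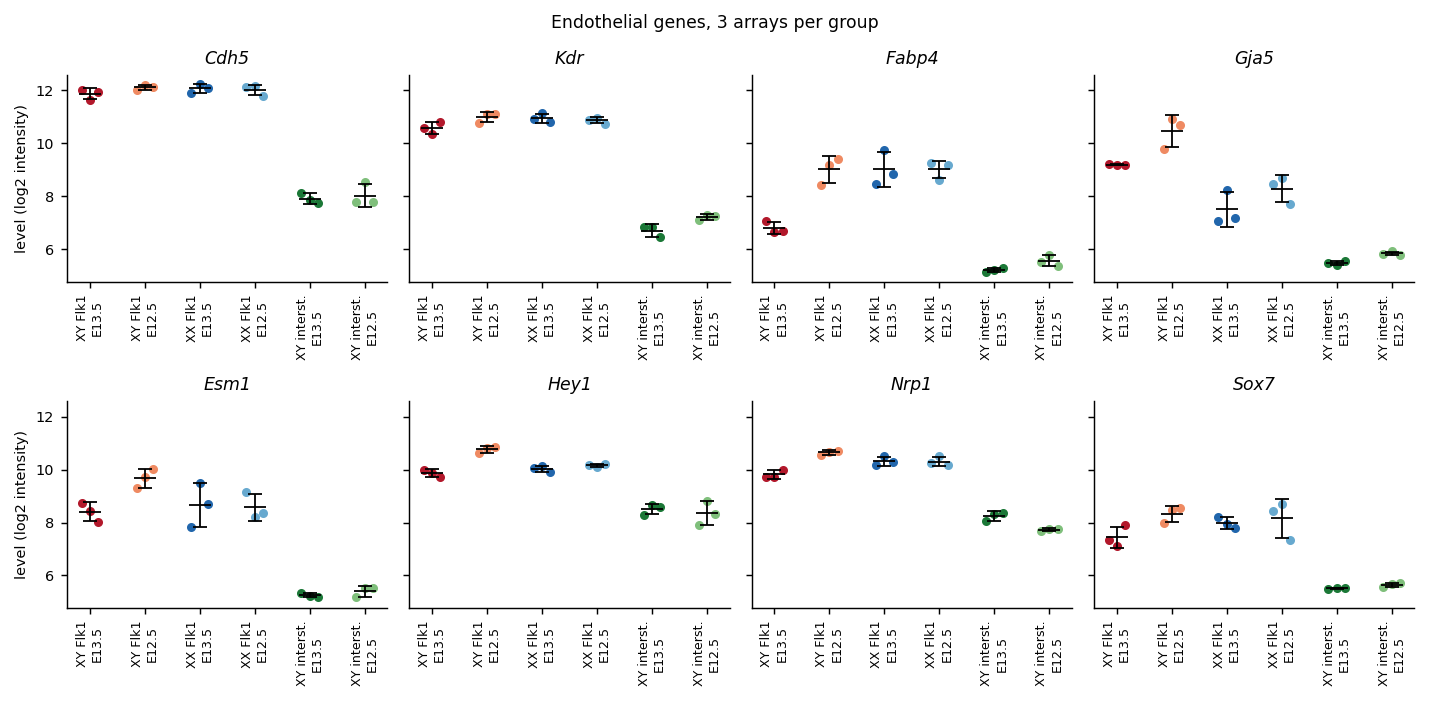
Level (log2 intensity, vertical) of 8 endothelial genes on each array of XY *Flk1-mCherry*, XX *Flk1-mCherry* and XY interstitial cells at E13.5 and E12.5. Points are arrays, and bars are the mean and SD of 3. *Cdh5* stayed near 12 in the *Flk1-mCherry* groups, while *Fabp4* averaged 6.80 in XY cells at E13.5, against 9.01 at E12.5.

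Genes of division were lower at E13.5 without a call, at a stage difference that was above 0 for only 40% of all fitted genes. All 17 mitosis genes had a negative difference, with a median of -0.36, and their mean level was 9.33, 9.52 and 9.32 at E13.5, against 9.64, 9.81 and 9.84 at E12.5, so that the list's arrays did not overlap. Of 16 DNA replication genes 14 were lower, with a median of -0.17. None of these passed the test, nor did any of 10 cell cycle inhibitors or 10 hypoxia and glycolysis members. Of 15 stress genes *Hspa1a*, a heat shock protein, rose (adjusted p = 0.0243, and called in 2 of the 6 fits with 1 array left out), and of 14 retinoid and alcohol oxidation members *Adh1* and *Rbp4*, the plasma carrier of retinol, rose. All 12 vascular basement membrane genes were lower, with a median of -0.23, and 1 of them, *Col15a1*, a collagen of vessel walls, fell.

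Markers of other cells also differed between the stages and between arrays of one stage. Interstitial mesenchyme genes had mean levels of 7.80, 8.47 and 7.14 at E13.5, against 7.37, 7.27 and 7.04 at E12.5, so the 3 E13.5 arrays were unlike each other. *Dcn*, a matrix proteoglycan, lay at 8.32, 9.65 and 6.73 at E13.5, against 7.36, 7.03 and 6.64 at E12.5, and *Pdgfra*, a growth factor receptor of mesenchyme, at 8.33, 10.11 and 7.57, against 8.25, 8.54 and 8.08. E13.5 replicate 2 was high and replicate 3 was within or below the E12.5 range for both genes. Of 15 mesenchyme members 6 rose (*Mgp*, *Dcn*, *Sfrp1*, *Pdgfrb*, *Gata6* and *Maf*), but 1 did without E13.5 replicate 2, 1 without E13.5 replicate 1 and 1 without E12.5 replicate 3. Smooth muscle and pericyte genes had the same pattern by array, with 7.38, 7.52 and 6.86 at E13.5, against 7.03, 6.90 and 6.97 at E12.5, and 3 of 12 members rose (*Rgs5*, *Tpm2* and *Abcc9*), of which *Abcc9* alone was called without E13.5 replicate 1, without E13.5 replicate 2 or without E12.5 replicate 3. On E13.5 replicate 3, which was low in both lists, the steroid list stood at 9.73. That is 1 array, and what these cells add to the steroid level was not tested.

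Macrophage genes also differed by array. Their mean level was 7.52, 7.74 and 7.84 at E13.5, against 7.42, 7.22 and 6.64 at E12.5, with E12.5 replicate 3 the lowest. Of 17 members 6 rose (*Mrc1*, *C1qc*, *Aif1*, *Tyrobp*, *Csf1r* and *Adgre1*). *Mrc1*, the macrophage mannose receptor, had 8.85, 9.65 and 9.29 at E13.5, against 8.60, 8.34 and 6.79 at E12.5 (adjusted p = 0.0226). Without E12.5 replicate 3 none of the 17 was called, and 2 were without E13.5 replicate 2 or without E13.5 replicate 3. Among germ cell genes *Dppa3* rose, with 9.06, 9.63 and 9.44 at E13.5, against 8.74, 8.10 and 7.36 at E12.5 (adjusted p = 2.4e-04), while *Pou5f1* was not called and *Ddx4*, at 5.66, 6.05 and 5.74 at E13.5, against 5.49, 5.29 and 5.12 at E12.5, was not a member. Of 13 germ cell genes analysed, 11 were higher at E13.5. *Mael*, also not a member, had 5.84, 6.42 and 5.63 at E13.5, against 5.42, 4.94 and 5.00 at E12.5 (adjusted p = 0.0096), and *Dazl* was higher by 0.68 without overlap (adjusted p = 0.124). No member of the Sertoli, red blood cell, platelet or mesonephric lists was called. Outside the Sertoli list, *Defb19* and *Akr1cl*, of the 15 largest rises, averaged 12.48 and 10.59 in XY *Sox9-ECFP* Sertoli cells at E13.5. Their XY *Flk1-mCherry* means at E13.5 were lower, at 10.78 and 10.42, while the rest of the 15 were lower in Sertoli cells. *Amh*, which defines Sertoli cells, lay at 6.12, 5.90 and 6.28 at E13.5, against 6.21, 5.90 and 5.98 at E12.5. Of 15 Sertoli genes analysed, 8 were higher at E13.5 and 7 lower. *Aard* was higher by 0.92 without overlap (adjusted p = 0.0909) and *Hsd17b3* by 0.74 with overlap (adjusted p = 0.201). Both were called without E12.5 replicate 1. The part of these cell types in the other calls was not tested.

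**Figure D4:**
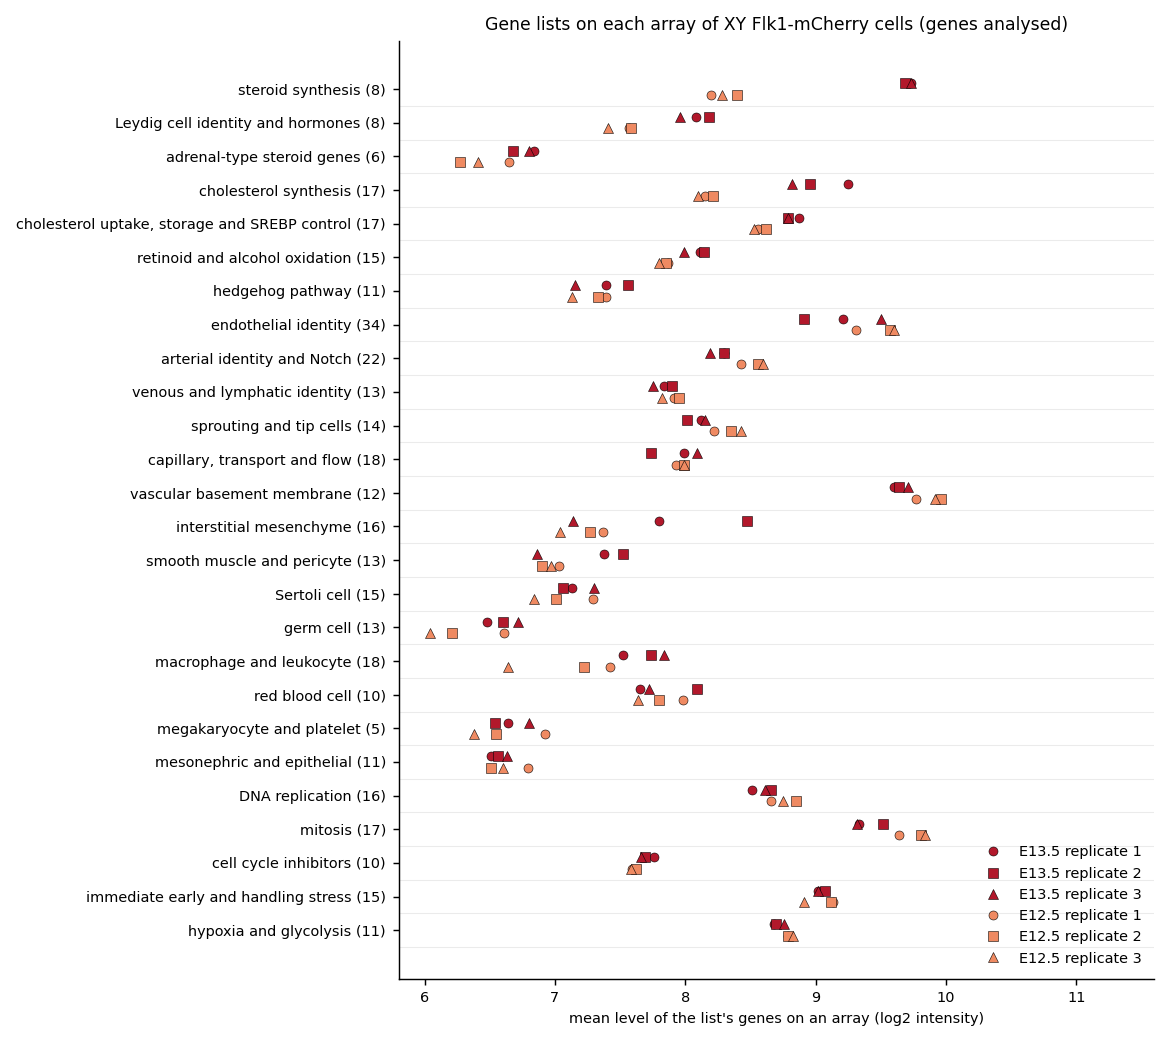
Mean level of each gene list (log2 intensity, horizontal) on each of the 6 XY *Flk1-mCherry* arrays, with E13.5 in dark red above E12.5 in orange and the symbols standing for replicates 1, 2 and 3. The steroid list lay between 9.69 and 9.73 at E13.5 and between 8.20 and 8.40 at E12.5, while the interstitial mesenchyme list spread from 7.14 to 8.47 at E13.5.

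To ask whether these changes belonged to the XY gonad, the stage change in XY *Flk1-mCherry* cells was tested against that in XX *Flk1-mCherry* cells. The XX cells themselves changed little, with 34 members risen and 13 fallen (0.219% and 0.0836% of members). 3 clusters rose in both sexes, 0.888% of those that rose in XY and 8.82% of those that rose in XX cells, and 2 fell in both. The change was more positive in XY than in XX for 108 members and more negative for 76 (0.695% and 0.489%). A fit to these 12 arrays alone called 24 and 1, and leaving out XY E12.5 replicate 3 left 65 and 28. Among the steroid list, 5 of 8 members had a more positive change in XY, and among cholesterol synthesis genes 8 of 17. *Cyp11a1* averaged 5.45 in XX cells of E13.5, against 5.46 at E12.5, under the floor at both stages, and the difference of the changes was 3.02 (adjusted p = 2.7e-07). *Star* averaged 6.62 at E13.5 and 6.46 at E12.5 in XX cells, with a difference of changes of 1.97 (adjusted p = 2.9e-06).

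Of the fallen genes, *Fabp4* set the sexes apart most. XX cells had 9.02 at E13.5 and 9.01 at E12.5, and the difference of the changes was -2.22 (adjusted p = 6.4e-06). *Esm1* and *Ackr3* also had a more negative change in XY cells, with differences of -1.37 (adjusted p = 0.0183) and -1.15 (adjusted p = 5.2e-05). *Gja5* did not pass, at 7.50 at E13.5 and 8.28 at E12.5 in XX cells, with a difference of -0.50 (adjusted p = 0.658). No difference of changes passed the test among the 21 arterial and Notch members, which does not show equal changes. The difference was 1.29 for *Cxcl12* (adjusted p = 0.0652), -0.76 for *Hey1* (adjusted p = 0.119), -0.79 for *Efnb2* (adjusted p = 0.115) and -0.84 for *Nrp1* (adjusted p = 0.186). In the XX cells themselves no arterial member was called, which does not show that the sexes differ either. Among 34 pan-endothelial members the change was more negative in XY for 3 and more positive for 0. Of 12 venous and lymphatic members it was more negative for *Nrp2* (-0.86, adjusted p = 0.0245) and more positive for 0.

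The same was asked of XY interstitial cells, which hold fetal Leydig cells by their label. Those cells also carry *Cst9*, a Sertoli cell gene, at 10.49 at E13.5 and 11.06 at E12.5, where XY *Sox9-ECFP* Sertoli cells had 12.40 and 11.74. In interstitial cells 143 members rose and 45 fell (0.92% and 0.289%). Of the risen members, 74 rose in both populations, 21.9% of those in XY *Flk1-mCherry* and 51.7% of those in interstitial cells, while none of the fallen was shared. In interstitial cells 5 of 8 steroid list members and 13 of 17 cholesterol synthesis members rose. *Hsd3b1* averaged 8.38 at E13.5 and 6.85 at E12.5 there, and its change differed from that in XY *Flk1-mCherry* cells by 0.83 (adjusted p = 0.391). *Cyp11a1* averaged 10.53 ± 0.48 at E13.5 and 7.72 ± 0.98 at E12.5 in interstitial cells (SD, n = 3 each), and its change differed from that in XY *Flk1-mCherry* cells by 0.21 (adjusted p = 0.952). For *Star* the difference was 0.46 (adjusted p = 0.731), and for *Cyp17a1* -0.43 (adjusted p = 0.82). A missed threshold does not show that these changes were equal, and the E12.5 interstitial arrays were spread.

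The changes differed between XY *Flk1-mCherry* and interstitial cells for 27 members in the positive direction and 26 in the negative (0.174% and 0.167%), and the total of 53 fell to 16 without XY *Flk1-mCherry* E12.5 replicate 3. *Nr0b1* rose in XY *Flk1-mCherry* cells but averaged 6.60 at E13.5 and 7.20 at E12.5 in interstitial cells, a difference of 1.89 (adjusted p = 0.0253). *Serpina5*, a secreted protease inhibitor, rose in XY *Flk1-mCherry* cells, with 7.33, 6.77 and 6.53 at E13.5, against 5.68, 5.64 and 5.45 at E12.5, and averaged 5.26 at E13.5 and 5.24 at E12.5 in interstitial cells (adjusted p = 6.7e-05 for the difference of changes). It was a member through E13.5 only, and all the other values lay under the floor. *Defb19* was as high in interstitial cells at E13.5 (11.17) as at E12.5 (11.21). On the negative side *Ackr3*, *Fabp4*, *Igfbp3*, a binding protein of insulin-like growth factors, and *Nrp1* fell in XY *Flk1-mCherry* cells, while interstitial cells had 7.82 for *Ackr3* at E13.5 and 7.27 at E12.5.

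**Figure D5:**
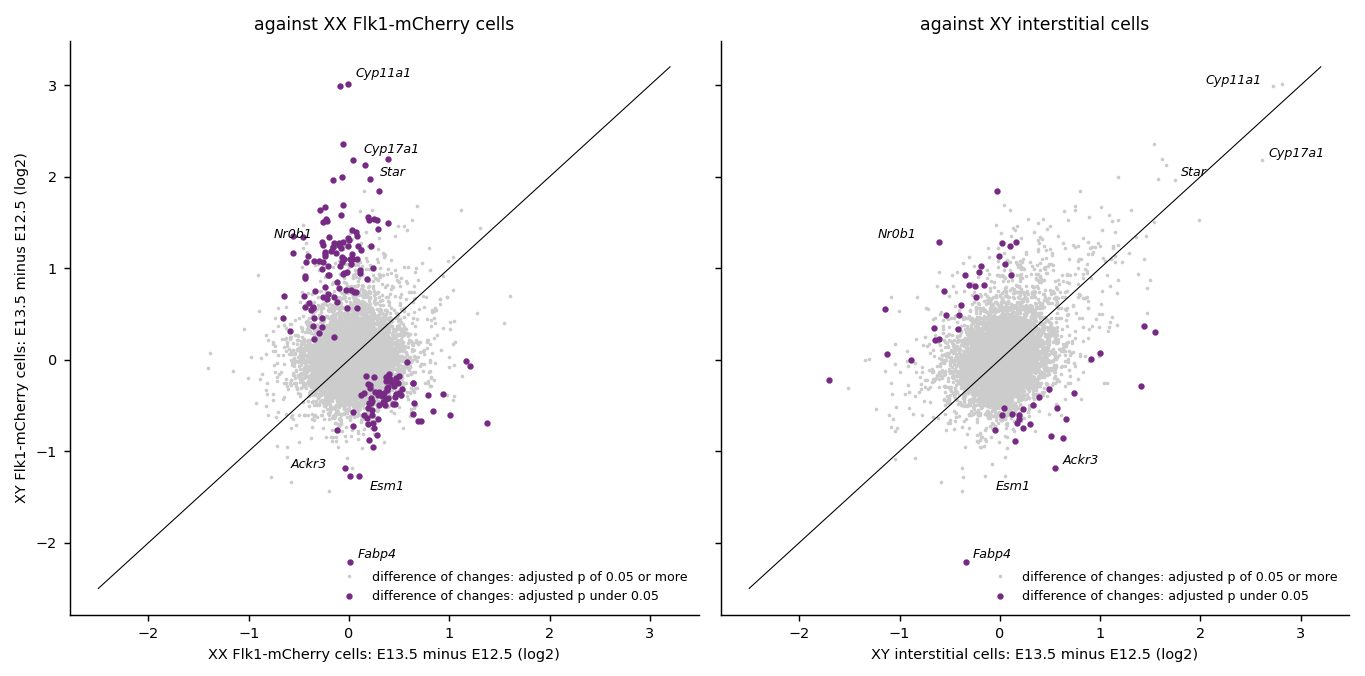
E13.5 minus E12.5 difference (log2) in XY *Flk1-mCherry* cells (vertical) against that in XX *Flk1-mCherry* cells (left panel, horizontal) and in XY interstitial cells (right panel, horizontal) for all members. Purple points are the 184 and 53 members whose changes differed, the line marks equal changes, and *Cyp11a1* and *Star* lie off the line in the left panel and near it in the right.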

How the data were processed

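Gene expression was measured on Affymetrix Mouse Gene 1.0 ST arrays. The deposited values are log2 intensities that the authors made from scanner data (GCOS) in Partek by robust multi-array averaging, with correction for probe sequence, quantile normalization and median polish, which removes differences in overall brightness between arrays. Of 91 arrays, 72 in 24 groups were used. The 18 aSma-EYFP arrays and 1 newborn array were not used. Of 35557 clusters, 12147 listed no gene and 1621 several, and these were left out. Clusters at log2 of 6 in 2 of 3 arrays of some group were fitted with group means in limma 3.58.1 (R 4.3.3, 48 residual degrees of freedom, two-sided), with Benjamini-Hochberg adjustment over 16820 clusters. Lists used the brightest cluster of each gene. Named genes were the 15 largest rises and falls without overlap, up to 5 of each list with its first 2, and the 8 largest differences of changes in each direction. Other list members named were chosen after their values were seen. Members and lists were chosen with earlier results of these data known. Since pools were not stated to come from separate litters, p-values measure the spread between arrays, and 3 arrays a group limit the precision. The fit was tested on simulated data. Alternatives were other filters, normalizations, array sets and a replicate block. Some items, among them the reporter of the interstitial sort, are not reported here.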

Additional observations from a re-analysis of the deposited data

Results flagged for a closer look

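The stage change differed between XY and XX *Flk1-mCherry* cells for 184 members and between XY *Flk1-mCherry* and XY interstitial cells for 53, by the interaction test in limma. Against XX cells, the change in XY cells was more positive for *Ephx1* (3.08), *Cyp11a1* (3.02), *Hsd3b1* (2.42), *Cyp17a1* (2.14), *Alas1* (2.11), *Fads2* (2.07), *Star* (1.97) and *Gramd1b* (1.91), in log2 units. The XX means of *Ephx1*, *Cyp11a1*, *Hsd3b1* and *Cyp17a1* lay under the floor at both stages, so a fall there could hardly be seen. Those of the rest lay above it. The change in XY cells was more negative for *Fabp4* (-2.22), *Gm10791* (-2.08), *Tm4sf1* (-1.61), *Zfp330* (-1.40), *Cdc25c* (-1.39), *Esm1* (-1.37), *Ccdc125* (-1.36) and *Nudt21* (-1.31). Of these, *Fabp4*, *Esm1* and *Cdc25c* were called as fallen in XY cells. *Gm10791*, *Tm4sf1*, *Zfp330* and *Nudt21* were not, and they rose in XX cells (1.38, 1.01, 0.84 and 0.94). *Ccdc125* was called in neither sex, and *Cdc25c* also rose in XX cells (0.72). Against interstitial cells, the change in XY *Flk1-mCherry* cells was more positive for *Nr0b1* (1.89), *Defb19* (1.88), *Gstm7* (1.71), *Kctd14* (1.47), *Rnf128* (1.30), *Serpina5* (1.26), *Tst* (1.21) and *Gjb2* (1.19). It was more negative for *Fabp4* (-1.87), *Ackr3* (-1.73), *Nts* (-1.70), *Igfbp3* (-1.49), *Nrp1* (-1.34), *Npr3* (-1.31), *Pdlim3* (-1.25) and *Rhoj* (-1.10). *Gstm7*, *Kctd14* and *Gjb2* were not called in XY *Flk1-mCherry* cells (0.55, -0.22 and 0.06) and fell in interstitial cells (-1.15, -1.70 and -1.13). In XY *Sox9-ECFP* Sertoli cells at E13.5 they averaged 10.80, 10.09 and 9.10. *Defb19*, *Tst*, *Nr0b1* and *Rnf128* averaged 12.48, 9.83, 7.96 and 7.68 there, each above its XY *Flk1-mCherry* mean at E13.5. *Serpina5* averaged 6.01 there, below its XY *Flk1-mCherry* mean of 6.88. *Nts*, *Pdlim3* and *Rhoj* were not called in XY *Flk1-mCherry* cells either (-0.29, 0.30 and -0.36) and rose in interstitial cells (1.41, 1.55 and 0.74).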

How the results depend on the processing

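None of the called named genes changed direction under the alternatives run. Uncalled genes near 0 could change sign, as *Cyp11b2* did (0.14 without E12.5 replicate 1 and -0.10 without E12.5 replicate 2). List medians were recomputed under 2 alternatives only, quantile normalization again and array medians aligned. All 52 of these medians, for 26 lists, moved by under 1 SD of replicates. They were not recomputed with an array left out. Of 72 called named genes, 30 lost their call in the fit to the compared arrays alone and 5 to 27 when 1 array was left out. The count of stage calls, 524, became 239 in the fit to the compared arrays alone and 250 to 598 with 1 array left out (250 without E12.5 replicate 3 and 317 without E13.5 replicate 1). The 184 differences between XY and XX changes became 25 in the fit to the compared arrays alone, 736 at the methods' limits (unadjusted p under 0.05 and fold over 1.5) and 93 to 333 with 1 array left out (93 without XY E12.5 replicate 3, 111 without XX E12.5 replicate 2, 121 without XX E13.5 replicate 2 and 333 without XX E12.5 replicate 3). The 53 differences from interstitial changes became 512 at the methods' limits and 16 to 101 with 1 array left out. That count was 16, 34 and 35 without XY *Flk1-mCherry* E12.5 replicate 3, E12.5 replicate 2 and E13.5 replicate 3, 28 and 32 without interstitial E12.5 replicates 2 and 3, and 101, 30 and 23 without interstitial E13.5 replicates 1, 2 and 3. Same-numbered XY *Flk1-mCherry* arrays deviated together with correlations of -0.01, 0.137 and 0.048, so the numbers were not taken as pairs. With the replicate block, fitted to the compared arrays alone, the 3 counts were 358, 16 and 12. The cause of these shifts was not tested.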

Other observations

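The labels also give 3 arrays of XY *Flk1-mCherry* cells at E11.5, a stage outside the comparison. Part of the mesonephros was kept in the E11.5 dissections and removed at the later stages, and the study describes 1 E11.5 XY array as somewhat apart in clustering, so stage and dissection cannot be told apart in these values. *Cyp11a1* lay at 5.19, 5.51 and 5.74 there, all under the floor, and *Star* at 6.52, 7.18 and 6.89, below every E12.5 array. *Gja5* had 8.56, 6.40 and 7.21 and *Esm1* 8.33, 7.0 and 7.24 at E11.5, all below the E12.5 arrays. *Fabp4* had 9.42, 8.22 and 7.87 at E11.5, which overlapped its E12.5 range.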
